A study of Mus musculus with 17 samples.

Results

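Calcium entering a neuron binds calmodulin, and the genes described here encode 9 proteins that act on or with that complex. They are the subunits of calcium/calmodulin-dependent kinase II (Camk2a, Camk2b, Camk2d and Camk2g), the nuclear kinase CaMKIV (Camk4), the kinase that activates it (Camkk2), the catalytic alpha subunit of the phosphatase calcineurin (Ppp3ca), and the small calmodulin-binding proteins neurogranin (Nrgn) and PEP-19 (Pcp4). The genes were taken by name, and all 9 were found among the 41015 annotated genes to which the deposited transcript counts were summed. CaMKII and calcineurin have opposing roles at excitatory synapses, where the kinase is needed for long-term potentiation and the phosphatase for long-term depression. Neurogranin and PEP-19 hold calmodulin through an IQ motif and set how much of it is free. In the adult rodent brain Camk2a and Nrgn are known as genes of forebrain excitatory neurons, Camk4 as a gene of cerebellar granule cells as well as of forebrain, and Pcp4 as a gene of Purkinje cells, striatum and deep cortex.

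RNA from mouse brain was sequenced in 17 libraries, 6 from mice carrying a transgene that overexpresses the human long noncoding RNA HAR1A and 11 from normal controls, all on a C57BL/6 background. The labels give neither the promoter of the transgene, the founder line, the part of the brain taken, age, nor sex, and no label ties a library to its own animal. Titles of several libraries, in both groups, open with a shared number whose meaning is not given, so libraries may not be independent. The p-values therefore describe how far libraries spread, which may be technical. All transgene libraries ran on lane 4, with 3 of the controls. A further 6 controls ran on lane 8, 1 on lane 2 and 1 on lane 6 of another flow cell. Libraries are numbered within a group in order of deposition.

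Assigned counts ranged from 17067407 to 22642441 per library, and levels are given below as TMM-scaled CPM, the counts of a gene relative to the scaled library size. Genes were tested over the whole table with edgeR's quasi-likelihood test, and a call is a Benjamini-Hochberg adjusted p under 0.05. Over all libraries 47.4% of 19136 tested genes were called, 23.0% being higher with the transgene and 24.4% lower. Of the calls 48.6% were higher, and 35.6% with scaling by library size only, with the same 6 members called in the same direction. Markers of brain regions also differed between the groups. Of 10 telencephalic genes 9 were higher, and these 9 summed to 13.9 to 247 CPM in controls and 505 to 726 CPM in transgene libraries. The gene not called, Neurod2, which cerebellar granule cells also express, had 44.1 to 459 CPM in controls and 197 to 331 CPM in transgene libraries, and with it the sums were 70.9 to 574 and 716 to 1037 CPM. The sum without Neurod2 was chosen after the values were seen. Of 9 striatal projection neuron genes 9 were higher (482 to 752 against 1286 to 3514 CPM). Of 7 hindbrain and cord genes 7 were lower (37.2 to 313 against 0.834 to 2.01 CPM), and 6 of them were at 0 counts in at least 1 transgene library. Of 6 cerebellar granule cell genes 6 were lower (94.6 to 2514 against 46.0 to 427 CPM), as were 6 of 7 Purkinje cell genes (225 to 3958 against 254 to 877 CPM). Within lane 4 alone, 4 of 6 granule cell genes and 2 of 7 Purkinje cell genes were called lower. Leaving out 1 library there moved these counts between 0 and 5 and between 1 and 6. The telencephalic and hindbrain counts within lane 4 were the same as over all libraries. The 6 pan-neuronal genes summed to 3713 to 5799.9 CPM in controls and to 3805 to 5241 CPM in transgene libraries. Astrocyte genes were lower for 3 of 5 (2229 to 2804 against 1334 to 1546 CPM) and oligodendrocyte genes for 4 of 5, with 1 higher (857 to 3738 against 726 to 1595 CPM). Of 3 tested microglial genes 2 were higher, and 0 of 3 tested choroid plexus genes were called by edgeR. Control 7 had the lowest granule cell and Purkinje cell sums of the controls and the highest hindbrain and pan-neuronal sums. The part of these differences in the results below was not tested. In bulk tissue, fewer cells of a type and less RNA per cell cannot be told apart. Because the labels name no part of the brain, a difference in the part taken cannot be told apart from these either.

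Promoter sequences (250 bases before to 50 after the RefSeq start, build GRCm38.p6) were held for 5 of the 9 genes. Those of Nrgn, the member that differed most between the groups, and of Pcp4, the other calmodulin-buffering protein, which was not called, are shown for comparison. Nrgn lies on the minus strand of chromosome 9 (37544492 to 37552904, mm10), with the promoter window at chr9:37552696-37552995, and Pcp4 on the plus strand of chromosome 16 (96467606 to 96525793), with the window at chr16:96467356-96467655. Capitals mark matches to CANNTG, the E-box core bound by basic helix-loop-helix factors.
Nrgn: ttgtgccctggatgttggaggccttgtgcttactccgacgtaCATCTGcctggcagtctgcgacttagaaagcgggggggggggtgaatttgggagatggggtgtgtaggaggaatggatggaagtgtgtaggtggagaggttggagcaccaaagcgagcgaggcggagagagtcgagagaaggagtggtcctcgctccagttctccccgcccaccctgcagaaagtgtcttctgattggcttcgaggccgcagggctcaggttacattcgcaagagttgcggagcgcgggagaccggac
Pcp4: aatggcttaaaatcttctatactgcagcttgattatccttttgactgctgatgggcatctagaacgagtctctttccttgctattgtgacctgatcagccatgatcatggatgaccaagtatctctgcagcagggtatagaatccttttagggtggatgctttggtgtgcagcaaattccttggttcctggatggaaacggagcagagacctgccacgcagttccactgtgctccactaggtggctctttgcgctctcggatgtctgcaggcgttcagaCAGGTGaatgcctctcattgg
Each of the pair held 1 E-box core, which 72.3% of 32851 promoters of the same length held at least once. The full cAMP response element TGACGTCA, the site of the CaMKIV substrate CREB, was searched on both strands and is in 1.79% of all promoters. Its shorter form TGACG, which it contains, is in 20.8%, and TATAAA in 13.6%. None of these 3 was in the windows of Nrgn, Pcp4, Camk2b, Camk2d or Camkk2. The Pcp4 window was 48.7% G and C, the Nrgn window 59.3%, and those of Camk2d, Camkk2 and Camk2b 70.3%, 73.3% and 77.3%.

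Of the 9 members, 4 rose in the transgene libraries (Camk2a, Nrgn, Ppp3ca and Camkk2), the gene sums of Camk2b and Camk2d fell, and Camk2g, Camk4 and Pcp4 were not called. Transcript rows of Camk2b moved in both directions, so its count here is that of the sum alone. In all 6 of 9 members were called, against 47.4% of all tested genes. The median log2 fold change of the members was 0.20, against -0.05 for all tested genes. The libraries of the groups did not overlap for 3 of the 9 (Camk2a, Nrgn and Ppp3ca), against 14.9% of all tested genes. The members were chosen with earlier results of these data known, so these shares only describe them.

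**Figure D1:**
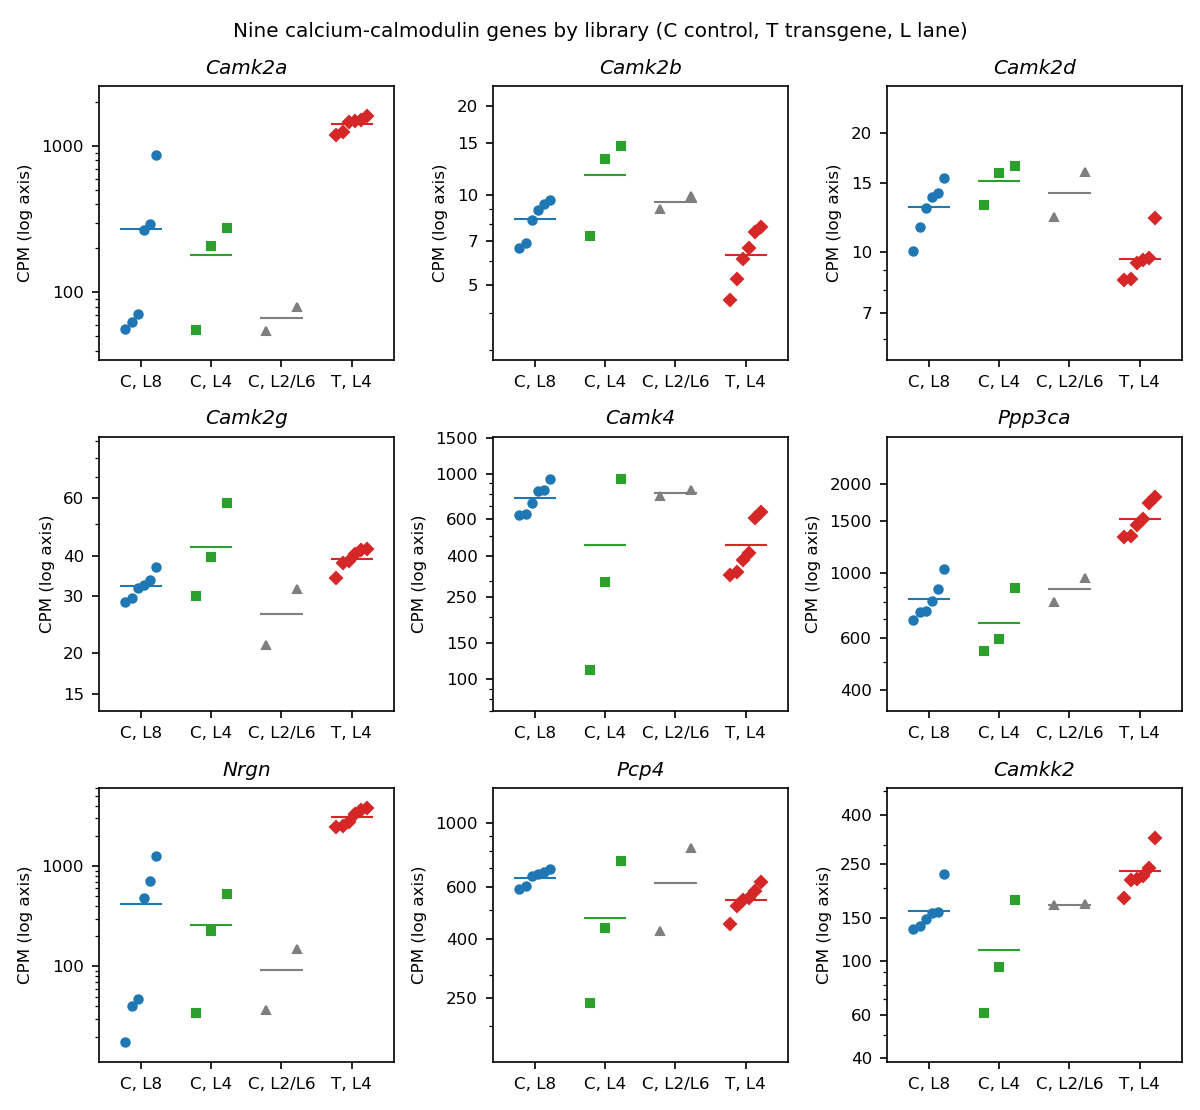
TMM-scaled CPM of each member in each library (log axes), with controls of lane 8, lane 4 and lanes 2 and 6 and the 6 transgene libraries in separate columns, and a bar at the mean of each column. Camk2a, Nrgn and Ppp3ca of all 6 transgene libraries lie above every control, while Camk2a and Nrgn spread widely among the controls.

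Neurogranin differed most. Its 6 transgene libraries had 2476 to 3761 CPM with a median of 3050.1, and the 11 controls 17.7 to 1249.7 CPM with a median of 149. The lowest transgene library stood above the highest control, and the controls themselves spread 70.7-fold. The log2 fold change was 3.27 ± 0.72 (SE, edgeR adjusted p = 0.00107), a 9.64-fold difference between means of 3079 ± 573 (SD, n = 6) and 319.5 ± 390.4 CPM (n = 11). All reads of Nrgn came from 1 deposited row whose 1453 exon bases no other row matched to the annotation shared. Its sum thus does not depend on how reads were divided among annotated transcripts.

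Camk2a, the alpha subunit and the most abundant kinase of forebrain excitatory synapses, followed. It had 1197 to 1607 CPM in the transgene libraries, with a median of 1467, and 54.9 to 875 CPM in the controls, with a median of 79.9. No control reached the lowest transgene library. The log2 fold change was 2.76 ± 0.52 (SE, edgeR adjusted p = 0.000264), a 6.78-fold difference. Both genes varied among controls far more than most: 98.8% of tested genes had a smaller standard deviation of log2 CPM over the controls than Camk2a, and 99.8% a smaller one than Nrgn. Among the transgene libraries the shares were 30.1% and 52.7%.

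The controls with the most Camk2a were also those with the most Nrgn. Controls 2, 3, 8, 10 and 11 had 207 to 875 CPM of Camk2a and 228 to 1249.7 CPM of Nrgn. The other 6 controls had 54.9 to 79.9 CPM of Camk2a and 17.7 to 149 CPM of Nrgn. Since the controls fell into these separate ranges, no correlation is given for this pair. The 9 telencephalic genes without Neurod2 followed the same division, with summed levels of 81.7 to 247 CPM in controls 2, 3, 8, 10 and 11 and 13.9 to 26.8 CPM in the other 6 controls. With Neurod2 the sums overlapped, at 252 to 574 and 70.9 to 484 CPM. The part of these markers in the levels of Camk2a and Nrgn was not tested. Both ranges of control held libraries of lane 4 and of lane 8.

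**Figure D2:**
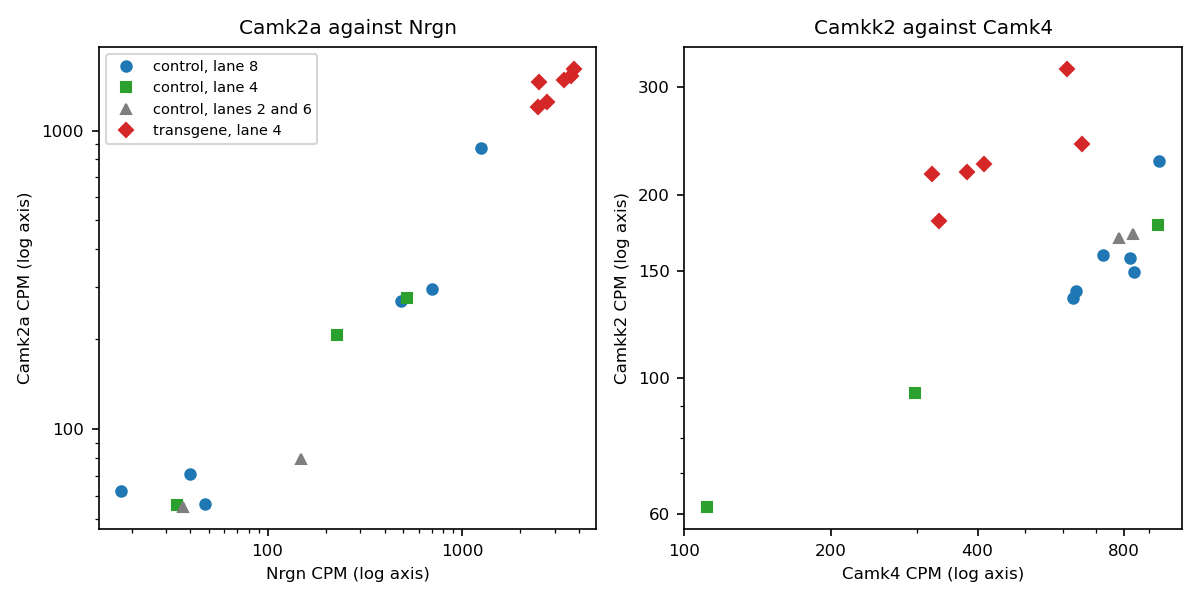
CPM of Camk2a against Nrgn (left) and of Camkk2 against Camk4 (right), 1 point per library, on log axes, with colours for group and lane. On the left the transgene libraries continue the order of the controls beyond control 3, and on the right they lie at higher Camkk2 than controls of similar Camk4.

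Ppp3ca, the calcineurin catalytic subunit, had 1326 to 1809.7 CPM in the transgene libraries (median 1489.9) and 543 to 1029.9 CPM in the controls (median 798), with no overlap. Unlike the preceding pair it was steady among controls, with a standard deviation of log2 CPM of 0.28 where the median gene had 0.32. The log2 fold change was 0.96 ± 0.12 (SE), with the smallest edgeR adjusted p of the members (3.78e-06), a 1.94-fold difference between 1530.3 ± 202 (SD, n = 6) and 789 ± 148 CPM (n = 11).

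Camkk2, the kinase that phosphorylates CaMKIV and also AMP-activated kinase, had 181 to 321 CPM in the transgene libraries (median 221) and 61.5 to 227 CPM in the controls (median 157). The groups overlapped, since control 3 at 227 CPM stood above 4 of the 6 transgene libraries. The log2 fold change was 0.64 ± 0.19 (SE, edgeR adjusted p = 0.0089), or 1.56-fold.

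Its substrate kinase Camk4 was not called. Camk4 had 323 to 655 CPM in the transgene libraries (median 396) and 111 to 945 CPM in the controls (median 779). Control 7 at 111 CPM and control 11 at 297 CPM were below every transgene library, while the other 9 controls, at 629 to 945 CPM, were mostly above them. The log2 fold change was -0.60 ± 0.32 (SE, edgeR adjusted p = 0.13). Without control 7 it was -0.69 and passed the test (edgeR adjusted p = 0.0107). Control 7 had 94.6 CPM and control 11 had 847 CPM of the granule cell genes, the lowest sums among the controls, which otherwise had 1738 CPM or more. The transgene libraries had 46.0 to 427 CPM of these genes, below control 11, with more Camk4 than either control. The part of granule cells in the Camk4 levels was not tested.

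Camk4 and Camkk2 varied together across the 11 controls, with a Pearson r of 0.964 (permutation p = 2e-05, adjusted over 36 member pairs p = 0.00036) and a Spearman rho of 0.882 (permutation p = 0.00076, adjusted p = 0.0137). Without the 2 controls farthest from the median in Camk4, r was 0.814, and among the 6 controls of lane 8 alone it was 0.819. In the 6 transgene libraries r was 0.781. Of the 36 pairs, 13 passed on Pearson's r (7 positive, 6 negative). For all 13 of these r was closer to 0 without the 2 controls farthest from the median in 1 gene of the pair. Leaving out extreme libraries tends to lower r in pairs picked for a high r, so this count decides nothing. The pair of Camk4 and Camk2b went from -0.807 (permutation p = 0.00349) to -0.112 without the 2 controls farthest in Camk2b, and so rested on those libraries. Fewer pairs passed on Spearman's rho than on Pearson's r. Camk2a and Camk2b passed on rho alone (-0.836, permutation p = 0.00222, adjusted p = 0.0266), with a Pearson r of -0.611 (permutation p = 0.0468, adjusted p = 0.112).

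Pcp4 was the steadiest of the abundant members between the groups. It had 448 to 626 CPM in the transgene libraries (median 546) and 241 to 821 CPM in the controls (median 653), and the transgene range lay inside that of the controls. Its log2 fold change was -0.13 ± 0.18 (SE, edgeR adjusted p = 0.588). Control 7 was again the lowest control, with 241 CPM. The Pcp4 row has 398 of 641 exon bases to itself, and its remaining bases are also part of a transcript of the neighbouring gene Igsf5. Reads lying there fall on more than 1 row and are not part of the Pcp4 count.

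The remaining CaMKII subunits were measured on few reads. The deposited counts leave out reads that fall on more than 1 row, 40.2% to 43.4% of the reads of a library, and these genes are split into many overlapping transcripts. Camk2b, the beta subunit that binds actin, has 10 deposited rows, which together leave 175 of 4431 exon bases to a single row, and 6 of the 10 had no count in any library. Its sum was 84 to 167 counts per transgene library and 114 to 315 per control. Camk2g has 151 of 3817 such bases in 4 rows and Camk2d 2809 of 8524 in 9 rows. By comparison Camk2a has 2093 of 5660. These bases are a guide and not the authors' own rule, since Camk2a-201 has none to itself and still held 41 to 191 counts per library. Their levels are therefore not set beside those of the other members, and a change in their sum can be a change in which transcript was made.

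Camk2b had 4.44 to 7.85 CPM in the transgene libraries (median 6.37) and 6.64 to 14.6 CPM in the controls (median 8.98), with overlap. The gene sum fell by 0.59 ± 0.17 on the log2 scale (SE, edgeR adjusted p = 0.00884). Its rows did not move together. Tested as rows of the whole table, where 44.8% of 23353 rows were called (23.7% higher, 21.1% lower), Camk2b-202 fell by 2.47 ± 0.34 (SE, edgeR adjusted p = 8.75e-06), from 5.73 ± 2.61 CPM (SD, n = 11) to 1.02 ± 0.42 CPM (n = 6). This row had 39 to 258 counts in each control and 8 to 34 in each transgene library, without overlap. Camk2b-209 rose by 0.56 ± 0.17 (SE, edgeR adjusted p = 0.0123), and Camk2b-208, at 0.52 ± 0.31, was not called. The fall of the sum thus rests on Camk2b-202, which held 49.6% of its counts, and no direction can be given for Camk2b as a whole. The call of Camk2b-209 was lost with lane as a factor (log2 fold change 0.35) and with scaling by library size only (0.42).

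Camk2d, the delta subunit, known as the main form in heart and found throughout the body, had 8.46 to 12.2 CPM in the transgene libraries (median 9.43) and 10.0 to 16.5 CPM in the controls (median 13.8). The groups overlapped through transgene 6, at 12.2 CPM. Its sum fell by 0.52 ± 0.11 on the log2 scale (SE, edgeR adjusted p = 0.000802). Camk2d-205 and Camk2d-216 fell by 1.55 ± 0.29 and 1.15 ± 0.18, while Camk2d-206, which held 69.9% of the counts, was not called (-0.24 ± 0.17, edgeR adjusted p = 0.253). Camk2g, the gamma subunit, which can carry calmodulin to the nucleus, had 34.1 to 42.0 CPM in the transgene libraries (median 39.5) and 21.1 to 58.0 CPM in the controls (median 31.8). It was not called (log2 fold change 0.20 ± 0.14, edgeR adjusted p = 0.256), and neither were its tested rows. Control 7 was the highest at 58.0 CPM, and without it the log2 fold change was 0.33 and passed (edgeR adjusted p = 0.0093).

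**Figure D3:**
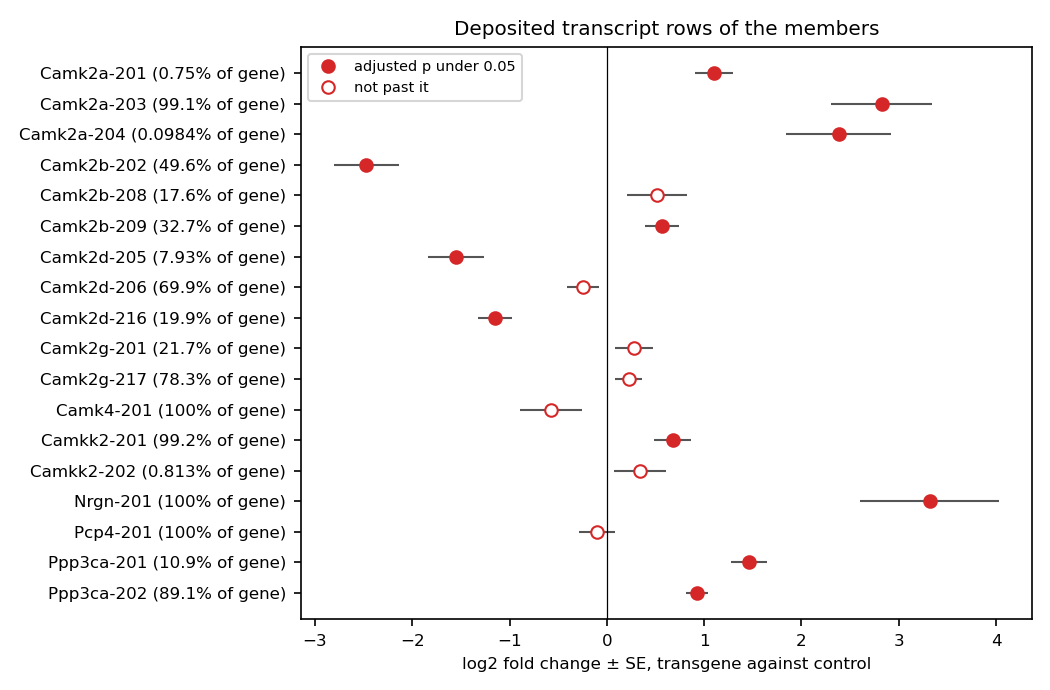
Log2 fold change with its SE for the 18 tested transcript rows of the members, with the share of the gene's counts held by each row. The rows of Camk2a and Ppp3ca lie right of 0, while those of Camk2b lie on both sides.

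In all, the 9 genes have 36 deposited rows, of which 15 had no count in any library and 18 were tested, 8 higher, 3 lower and 7 not called. Camk2a-203 held 99.1% of the Camk2a counts and rose by 2.82 ± 0.52, and the minor rows Camk2a-201 and Camk2a-204 rose by 1.10 ± 0.19 and 2.38 ± 0.54. The rise of Camk2a-201 was not called with lane as a factor (0.74, edgeR adjusted p = 0.0698). Both Ppp3ca rows rose, Ppp3ca-202 by 0.93 ± 0.11 and the shorter Ppp3ca-201 by 1.46 ± 0.18. Camkk2-201, with 99.2% of the Camkk2 counts, rose by 0.68 ± 0.19.

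Per kilobase of exon sequence held by a single row, the order of levels differed between the groups. In the transgene libraries Nrgn was first with 2119 ± 395 CPM per kilobase (SD, n = 6), followed by Pcp4 (1367 ± 151), Camk2a (677 ± 76.3), Ppp3ca (583 ± 76.9), Camk4 (171 ± 54.5) and Camkk2 (95.8 ± 19.4). The SD ranges of Camk2a and Ppp3ca overlapped. In the controls Pcp4 was first with 1495 ± 418 CPM per kilobase (n = 11). Next came Ppp3ca (301 ± 56.6), Camk4 (259.7 ± 99.5), Nrgn (219.9 ± 269), Camk2a (99.9 ± 116) and Camkk2 (61.3 ± 17.9), where each SD range overlapped that of the next but those of Ppp3ca and Camk2a did not. By this length Camk2a stood above Ppp3ca in 6 of 6 transgene libraries and in 1 of 11 controls, control 3, with 418 against 392 CPM per kilobase. Per kilobase of all exon sequence, mean Camk2a was instead below Ppp3ca in the transgene libraries (250 ± 28.2 against 320 ± 42.1, SD, n = 6). In the controls Camk4 was then above Ppp3ca (253 ± 96.8 against 165 ± 31.0, n = 11). The order of these genes thus depends on the length used.

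All transgene libraries came from lane 4, so the groups were also compared within that lane, 6 against 3. Here 25.6% of 19261 genes were called, and the same 6 members were called in the same direction. The log2 fold changes were 3.54 ± 0.67 for Nrgn, 2.97 ± 0.41 for Camk2a, 1.16 ± 0.18 for Ppp3ca, 1.05 ± 0.29 for Camkk2, -0.92 ± 0.24 for Camk2b and -0.68 ± 0.14 for Camk2d, with edgeR adjusted p between 0.000636 (Camk2a) and 0.0226 (Camkk2). The groups did not overlap for 5 of 9 members (Camk2a, Camk2d, Ppp3ca, Nrgn and Camkk2), against 25.3% of all tested genes. These libraries are part of the comparison over all libraries and are no independent repeat of it. Leaving out control 7 or control 11 ended the calls of Camk2b and Camkk2 (edgeR adjusted p of 0.0737 and 0.0676 for Camk2b, 0.0552 and 0.0915 for Camkk2).

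Camk4 had a log2 fold change of -0.01 ± 0.50 within lane 4 (edgeR adjusted p = 0.993), where the 3 controls were at 111, 297 and 941 CPM. Without control 7 it was -0.47 and without control 8 it was 1.14, neither of them called. Pcp4 had 0.19 ± 0.26 (edgeR adjusted p = 0.641). Without control 8 it rose by 0.67 (edgeR adjusted p = 0.0352).

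Between lanes among the controls, 6 libraries of lane 8 against 3 of lane 4, edgeR called 0 of 19384 genes (0%) and 0 of the members, and the lanes did not overlap for 0 of the members, against 2.62% of all tested genes. At an unadjusted p under 0.05 there were 1543 genes and 2 members, and DESeq2 called 1 gene and limma-voom 0. The largest log2 difference of a member, 0.77 ± 0.50 for Camk4, and those of Nrgn (0.68 ± 1.24) and Camk2a (0.58 ± 0.87) had wide errors, which shows how far the controls of 1 lane differed from one another. Without control 8, 88 genes were called. In simulated data this comparison recovered 25.3% of 2-fold changes, so the lack of calls does not show that the lanes are alike.

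**Figure D4:**
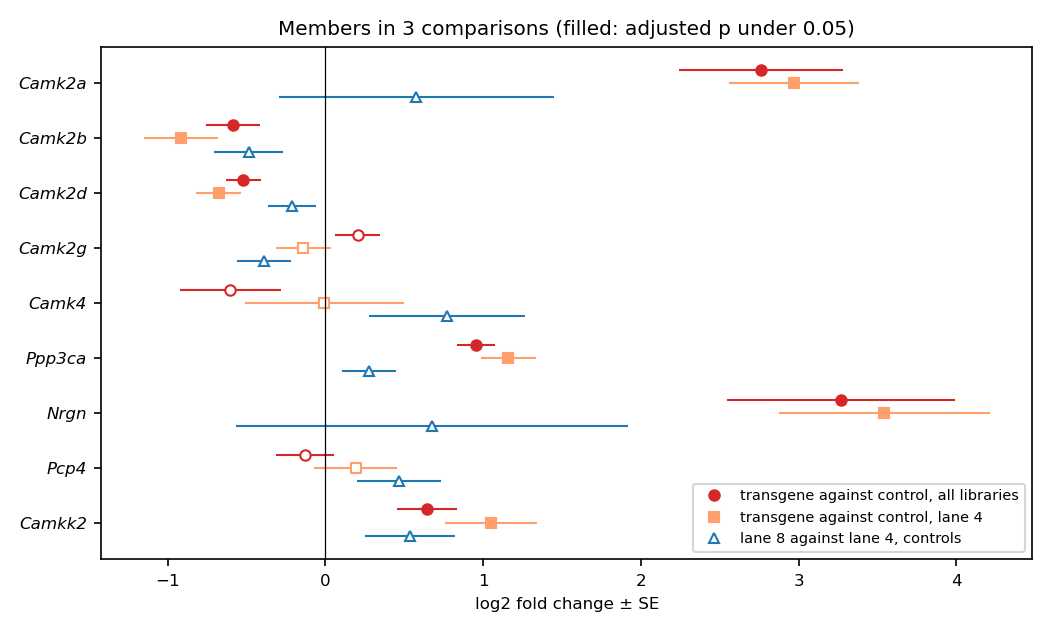
Log2 fold change with its SE for each member in the 3 comparisons (transgene against control over all libraries and within lane 4, and lane 8 against lane 4 among controls). Filled symbols passed an adjusted p of 0.05, and the members that passed over all libraries also passed within lane 4, while none passed between lanes among controls.

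Outside the 9 members, 67 other genes of the pathway were taken in 6 lists. Of the 62 tested, 30 were higher and 13 lower over all libraries (69.4% called, against 47.4% of all tested genes), and 23 were higher and 9 lower within lane 4 (51.6%, against 25.6%). These lists were chosen with earlier results of these data known.

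Among the calmodulin genes, Calm2 and Calm3, which encode the same protein, rose in the transgene libraries by 0.45 ± 0.09 and 0.36 ± 0.08 on the log2 scale (edgeR adjusted p of 0.000545 and 0.00162). Calm3 was not called with lane as a factor (log2 fold change 0.25). Of the same list, Calm4, Calml3 and Calml4 were too low to be tested with all libraries included. Without transgene 1, and also without transgene 4, 1 gene of the list was called lower.

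Of 14 other kinases and CaMKII inhibitors, 7 rose and 2 fell over all libraries, and 3 rose and 1 fell within lane 4. The count that fell was 0 without transgene 2, 4, 5 or 6, and 1 without transgene 1, without a filter, with limma-voom or with lane as a factor. Camk2n1, which encodes an inhibitor of CaMKII made in neurons, rose by 1.92 ± 0.24 (SE, edgeR adjusted p = 4.67e-06), so that the kinase subunit Camk2a and this inhibitor were both higher in the transgene libraries. Camkv, a kinase-like protein with no kinase activity, rose by 2.78 ± 0.42, the death-associated kinase gene Dapk1 by 1.95 ± 0.23 and Camk1d by 0.78 ± 0.12.

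Around calcineurin the list divided, with 4 of 12 tested genes higher and 4 lower (median log2 fold change -0.12). The regulatory subunit gene Ppp3r1 rose with Ppp3ca, by 1.17 ± 0.12 (SE, edgeR adjusted p = 5.21e-07), as did Akap5, which anchors calcineurin at the synapse, by 2.67 ± 0.28 from a low level. Rcan3, of a family of calcineurin regulators, fell by 1.04 ± 0.08 (edgeR adjusted p = 3.54e-08), and Nfatc3, a transcription factor that calcineurin activates, fell by 0.64 ± 0.09.

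Of 11 tested calmodulin-binding structural and growth proteins, 8 rose and 0 fell (edgeR, median log2 fold change 0.56), with 1 lower without control 7. Strn4 rose by 1.30 ± 0.14, Marcks, a membrane protein from which calmodulin can be released, by 0.85 ± 0.09, and the adducin genes Add2 and Add1 by 0.79 ± 0.08 and 0.56 ± 0.07. Of 15 calmodulin-regulated enzymes and pumps, 7 rose and 5 fell. The phosphodiesterase gene Pde1b, which is strong in striatum, rose by 1.90 ± 0.16 and its relative Pde1c fell by 1.64 ± 0.13, while the calcium pump gene Atp2b1 rose by 1.59 ± 0.15 and the inositol trisphosphate kinase gene Itpkb fell by 1.38 ± 0.15. Of 7 genes of CREB and its coactivators, Crtc1 rose by 0.66 ± 0.15, and Crtc2 and Crtc3 fell by 0.54 ± 0.12 each. Neither fall was called with lane as a factor, where the log2 fold changes were -0.36 and -0.30, and without control 11 the list had 4 lower genes.

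**Figure D5:**
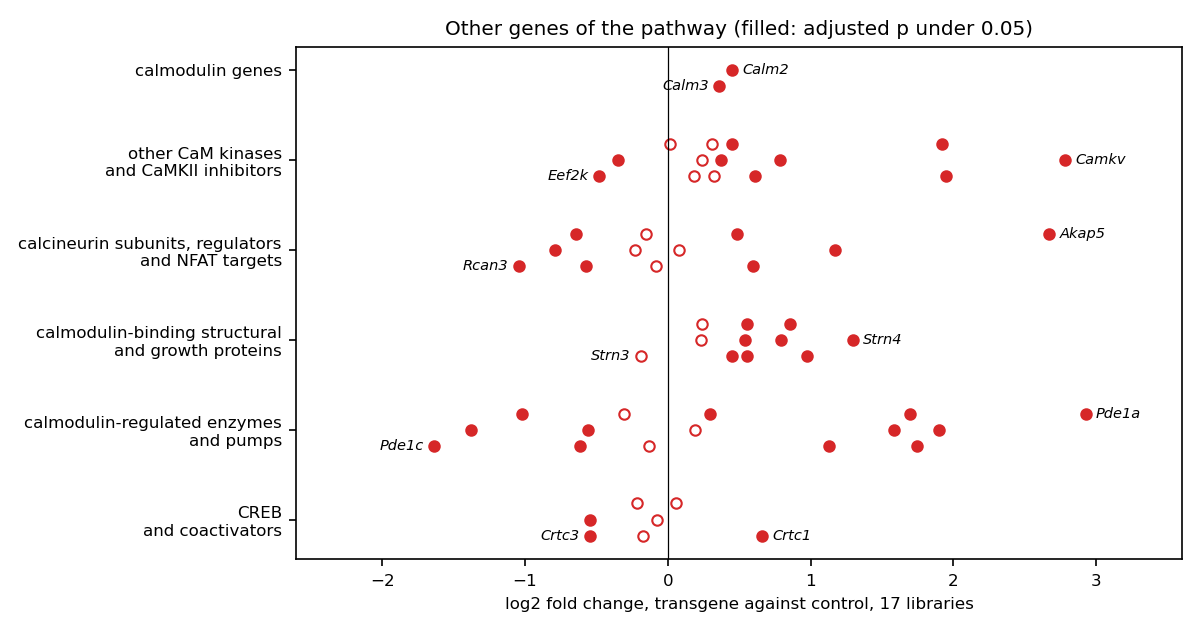
Log2 fold change of tested pathway genes in the comparison over all libraries, by list, with filled points for an adjusted p under 0.05 and the lowest and highest gene drawn in each list named. The calmodulin-binding structural proteins lie mostly right of 0, and the calcineurin list and the enzyme list spread to both sides.

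The genes whose log2 CPM followed each member most closely over the 11 controls were found by Pearson's r among all tested genes. These values describe libraries that share every gene's source, and no test is attached. For Nrgn they were Cnih2, an AMPA receptor auxiliary subunit (r = 0.982), Tmem121b (0.98) and Cyp46a1, the neuronal cholesterol hydroxylase (0.979). For Camk2a they were Pcdhgc5 (0.99), Islr2 (0.985) and Mrtfb (0.985). Spearman rho was 0.9909, 0.9273 and 0.9364 for the genes of Nrgn and 0.9545, 0.8727 and 0.8818 for those of Camk2a. The controls fell into separate ranges of Camk2a and Nrgn, so any gene with the same division can have a high r with them. Camk4 was followed by Sphkap (0.996), Dgkd (0.993) and Cep76 (0.991), and Camkk2 by Nedd4l (0.977), Ntm (0.975) and Ogfrl1 (0.974). For Pcp4 they were Gtpbp1 (0.98), Gramd1b (0.977) and Rbfox3, which encodes the neuronal marker NeuN (0.975). For Ppp3ca they were Prkcz (0.951), Fam117b (0.944) and Cd3eap (0.94), with Spearman rho of 0.9636, 0.9455 and 0.9636. The 3 genes of Camk4 had rho of 0.9273, 0.9273 and 0.7818, so the size of r does not rank how closely the members were followed. Of the sparsely counted subunits, Camk2b was followed by Gm26666 (0.96), Edem2 (0.948) and Ankrd24 (0.945), Camk2d by Macrod1 (0.95), Mrpl57 (0.909) and Nfatc2 (0.896), and Camk2g by Thoc7 (0.947), Gm16334 (0.947) and Dnajc8 (0.941).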

How the data were processed

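The authors deposited raw counts per transcript row, with 68517 rows per library, of which the 5 closing rows name no feature and entered neither library sizes nor tests. Reads were placed on mm10, per the submitters' processing notes. For the aligner, counter, strand setting and annotation, nothing is given in the sources used here. Reads on several rows made up 40.2% to 43.4% of each library and reads on no row 5.29% to 11.1%, per the closing rows of the files. Rows were matched to GENCODE M21 by name without version (64380 matched), and counts were summed per gene, giving 45147 features with the unmatched rows kept as their own. Exon bases held by 1 row were counted from the same annotation, ignoring strand. The unmatched rows were not part of that count, so overlap with them was not checked. The opposite-strand genes that overlap Camk2d, Camk4 and Ppp3ca have rows of their own. Without a stated strand setting, it is not known whether reads on exon bases shared with them were left out of the counts.

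Tests used edgeR 4.0.16 in R 4.3.3 (TMM, default expression filter, threshold 0.05). Standard errors were derived from the F statistic, and a prior count of 2 was added for log2 CPM. DESeq2 1.42.0 and limma-voom (limma 3.58.1) were alternatives, with other scalings, no filter, each library left out, lane as a factor, and the largest row of a gene. Correlation p-values used 100000 permutations. Errors come from the spread between libraries.

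Genes named are the 9 members, up to 4 called genes of each pathway list by smallest adjusted p, and the 3 genes most like each member. The members and lists were chosen with earlier results of these data known. Some genes of these lists are not reported here by name. The procedure was tested on simulated data. Of the 2-fold changes placed there, 70.7% were recovered over all libraries, 38.7% within lane 4 and 25.3% between lanes. For 1.5-fold changes the recovered shares were 37.8%, 5.43% and 4.04%. The false share of calls was 4.46%, 8.89% and 0%. The simulation held few changed genes, 197 of 18711 in the first comparison and 185 of 18724 in the second. With the deposited counts, these comparisons called 47.4% and 25.6% of tested genes. The adjusted p depends on how many genes change, so the simulated rates need not hold for either transgene comparison.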

Additional observations from a re-analysis of the deposited data

Results flagged for a closer look

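Of 18 sets of 6 libraries (each member in transgene libraries, and each in controls of lane 8), 3 held an outlying library. The rule used gaps in CPM. It flags about 1 set in 20 by chance only where levels are normally distributed, which was not tested. Control 3 stood high among the lane 8 controls in Camk2a, at 875 CPM with the other 5 between 56.1 and 295 CPM, and in Camkk2, at 227 CPM with the others between 135 and 159 CPM. The lane 8 controls fell into separate ranges of Camk2a. Their log2 CPM was 5.81 in control 1, 8.21 in control 2 and 9.77 in control 3. The Camk2a flag therefore cannot be judged against a rate of 1 in 20. Control 3 also had the most Nrgn of the controls. Transgene 6 stood high in Camk2d, at 12.2 CPM with the other transgene libraries between 8.46 and 9.61 CPM, on 175 to 206 counts per library.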

How the results depend on the processing

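No paired analysis was possible because the labels name no replicate numbers, and the number that opens each title is not explained. Camk2a, Nrgn and Ppp3ca kept their direction and call in both transgene comparisons under every alternative run, Camk2d under all but the largest transcript row alone (-0.24, adjusted p = 0.242 over all libraries). Over all libraries between 5 and 8 members were called. Without control 7 and transgene 3, Camk2g (0.31) and Camk4 (-0.83) were called over all libraries, and within lane 4 Camk2b (-0.65) and Camkk2 (0.74) were not. Members that were not called changed sign. With lane as a factor Camk2g was -0.12 (rows -0.27 and -0.11), Camk4 0.0031 (row 0.0021) and Pcp4 0.21 (row 0.20). Within lane 4, Camk4 was 0.0019 with RLE factors and with DESeq2, 0.0022 without a filter and 0.45 with limma-voom, and without control 7 and transgene 3 Camk2g was 0.13 and Pcp4 -0.15. Leaving out 1 library there moved Camk4 between -0.47 and 1.14, Camk2g between -0.34 and 0.16, and Pcp4 between -0.12 and 0.67. Between lanes, Nrgn was -0.021 with limma-voom, and leaving out 1 control moved Nrgn between -0.015 and 1.66 and Camk2a between -0.25 and 1.02. There DESeq2 called 1 gene in place of 0, and leaving out 1 control gave 0 to 88. With lane as a factor 6977 transcript rows were called in place of 10470, and 6099 genes in place of 9078. The cause of these shifts was not tested. Scaling by library size only moved the median of all genes from -0.05 to -0.16 and the share of higher calls from 48.6% to 35.6%, with the same 6 members called. Depth limits Camk2b and Camk2d, with at most 355 counts per library.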
